A study of Homo sapiens with 6 samples.

Results

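The genes analysed were the 10 genes of fatty acid synthesis, desaturation and elongation FASN, ACACA, ACLY, ACSS2, SCD, FADS1, FADS2, ELOVL5, ELOVL6 and ELOVL1. The rule took them by symbol alone, with no measured value in it, though earlier results of these data were known when they were chosen. They were 10 of the 21503 genes in the deposited count table. UMUC3 is an established human bladder carcinoma line, and its cells had been placed in the bladders of C57 nude mice and left there for 14 days. The knockdown group held 3 libraries from UMUC3 cells with knockdown of GANAB, and the control group held 3 libraries from UMUC3 cells of control genotype. GANAB encodes the catalytic subunit of glucosidase II, which trims glucose from newly attached N-glycans in the endoplasmic reticulum. Nude mice lack a thymus and hence most T cells, but keep other immune cells. The sources used here give neither the knockdown construct nor the number of clones or animals. Whether each library had an animal of its own is not labelled, so p-values measured the spread between the libraries alone, and part of it may be technical.

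Cells make fatty acids in the cytosol from acetyl-CoA. ATP citrate lyase (ACLY) makes acetyl-CoA from citrate and acetyl-CoA synthetase (ACSS2) makes it from acetate, acetyl-CoA carboxylase (ACACA) turns it into malonyl-CoA, and fatty acid synthase (FASN) builds palmitate from both. Stearoyl-CoA desaturase (SCD) converts saturated fatty acids into monounsaturated ones, FADS1 and FADS2 desaturate polyunsaturated ones, and the ELOVL enzymes lengthen chains in the endoplasmic reticulum. Sterol regulatory element binding proteins (SREBPs) are known to activate many of these genes. Tumour cells often make their own fatty acids even where lipids can be taken up.

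Knockdown libraries 1, 2 and 3 held 37659163, 36619291 and 40039584 estimated counts, and control libraries 1, 2 and 3 held 36381218, 17942832 and 11737837. The targeted gene, GANAB (ENSG00000089597), had 231, 238 and 231 CPM in knockdown libraries, against 685, 825 and 661 CPM in control libraries, and stood at 32.2% of the control level in the fit. CPM here means counts divided by the library total after TMM scaling and set to a common total per library. The control libraries differed from each other more than the knockdown libraries did, with a biological coefficient of variation of 10.7% in knockdown and 52.3% in control libraries. Mitochondrial ribosomal RNA took 2.43%, 2.11% and 2.37% of counts in knockdown libraries, against 29.2%, 1.10% and 0.928% in control libraries, so control library 1 stood apart. Control library 2 received the lowest sample quality weight, 0.126, against weights of 2.33 to 3.00 in knockdown libraries and of 0.798 and 0.595 in control libraries 1 and 3. Between 225 and 11882 counts lay behind each value of the 10 genes in a library. RNA came from whole grafts, in which fewer cells of a type and less RNA per cell cannot be told apart.

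All 10 genes had a fitted level below that of the controls in GANAB knockdown. Of these, 4 passed an adjusted p of 0.05 in edgeR's quasi-likelihood test and so fell: FASN, SCD, FADS1 and FADS2. None of the 10 rose, at an unadjusted p under 0.05 too (0 of 10) and with DESeq2 and limma-voom (0 of 10 each). Over all 19430 genes tested, 8.31% passed, of which 3.72% fell and 4.59% rose. The median log2 fold change of the 10 genes was -0.90, beside 0.03 for all genes tested. At an unadjusted p under 0.05, 10 of the 10 lay lower, against 12.2% of all genes. In 9 of the 10 genes every knockdown value lay below every control value, against 15.7% of all genes, and in 0 of 10 every knockdown value lay above, against 21.9%. The exception was ACACA, whose groups overlapped.

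**Figure D1:**
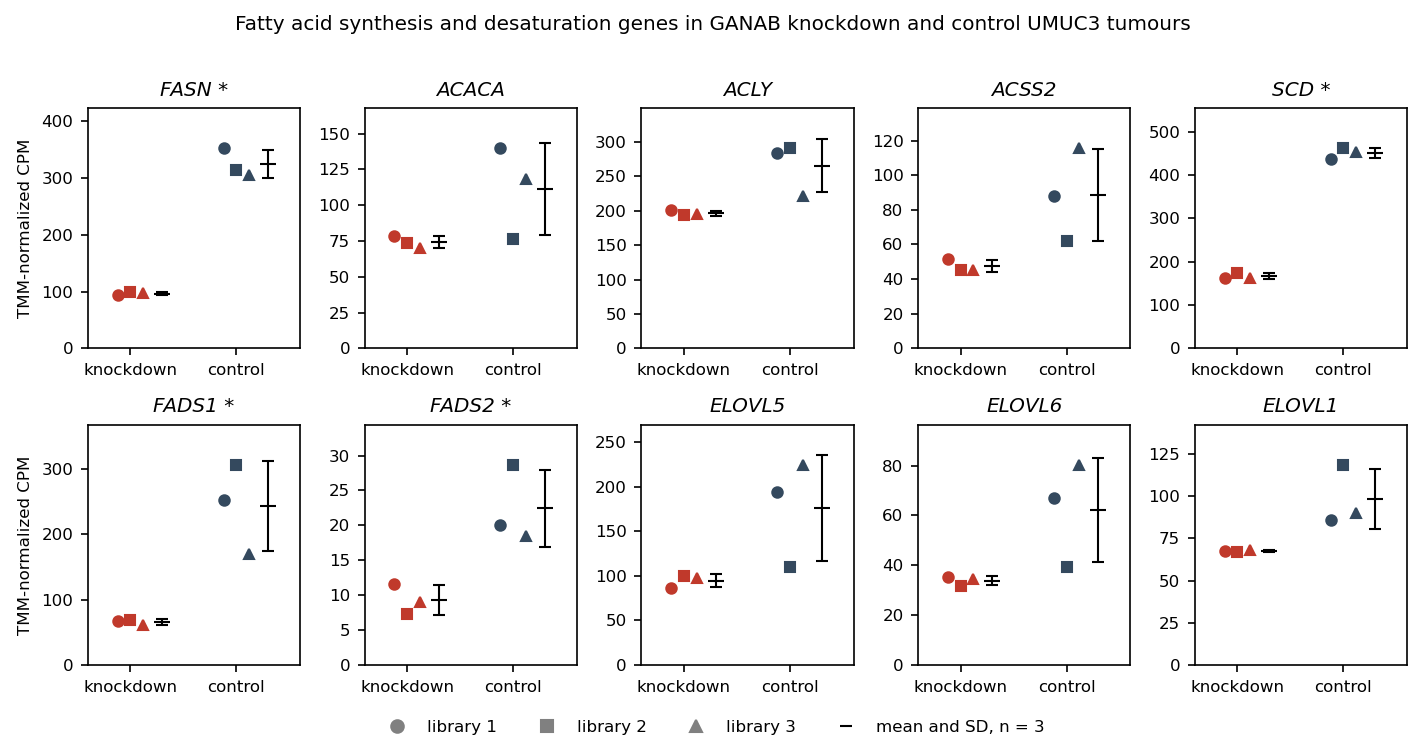
TMM-normalized CPM of each of the 10 genes in each library, with knockdown libraries left of control libraries. Each marker shape is a library number, the horizontal mark with whiskers is the group mean ± SD of 3 libraries, and * marks an adjusted p under 0.05. The knockdown points lie below all control points in every gene except ACACA, where control library 2 lies among them.

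How many of the 10 genes passed differed between tests and with the libraries kept. The DESeq2 Wald test called 9 of 10, all except ACACA, as fallen, against 9.27% of all genes. Limma-voom with sample quality weights called 10 of 10, against 10.4% of all genes. Without control library 2, edgeR called 9 of 10, all except ACLY, against 13.8% of all genes. Without control library 1 it called FASN, SCD and FADS1, and without control library 3 FASN, ACLY, SCD, FADS1 and FADS2. Without any single knockdown library it called FASN and SCD. Over all genes it called 1614 in either direction with all libraries, and 1601 and 1760 without control library 1 and 3. Without knockdown library 1, 2 and 3 it called 62, 115 and 88 of all genes.

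FASN (ENSG00000169710, GRCh38 chromosome 17, 82078333 to 82098332, minus strand) encodes the multifunctional synthase that produces palmitate. It had 93.7, 98.5 and 96.6 CPM in knockdown libraries, against 351, 314 and 305 CPM in control libraries. Both groups were tight and lay far apart, the highest control value being 1.15 times the lowest. FASN fell by 1.75 on the log2 scale (SE 0.128, adjusted p = 0.00132, edgeR quasi-likelihood test), to 29.8% of the control level. With any 1 library left out the log2 fold change lay between -1.84 and -1.71, and it passed in 6 of 6 such fits.

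Upstream of FASN, the genes of acetyl-CoA and malonyl-CoA supply lay lower by smaller amounts and none passed. ACLY (ENSG00000131473, chromosome 17, 41866908 to 41930542, minus strand) had 201, 194 and 195 CPM in knockdown libraries, against 285, 291 and 221 CPM in control libraries. Its groups did not overlap, and the log2 fold change was -0.43 (SE 0.147, adjusted p = 0.113). Without control library 3, which had the lowest control value, it was -0.60 (adjusted p = 0.0308).

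ACSS2 (ENSG00000131069, chromosome 20, 34872146 to 34927962, plus strand) had 51.6, 45.4 and 45.5 CPM in knockdown libraries, against 87.7, 62.1 and 115 CPM in control libraries. Control library 2 lay nearest to the knockdown libraries. The log2 fold change was -0.90 (SE 0.225, adjusted p = 0.0527), and without control library 2 it was -1.09 (adjusted p = 0.00107).

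ACACA (ENSG00000278540, chromosome 17, 37084988 to 37406818, minus strand), the cytosolic carboxylase that commits acetyl-CoA to fatty acid synthesis, had 78.4, 73.6 and 70.0 CPM in knockdown libraries, against 140, 76.4 and 118 CPM in control libraries. Control library 2 lay inside the knockdown range. The log2 fold change was -0.59 (SE 0.220, adjusted p = 0.141), and without control library 2 it was -0.80 (adjusted p = 0.00128). ACACA and FASN thus showed unlike spread among the same controls, with a highest value 1.83 times the lowest for ACACA.

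SCD (ENSG00000099194, chromosome 10, 100347124 to 100364834, plus strand) encodes the enzyme that makes oleate and palmitoleate. It had 162, 174 and 163 CPM in knockdown libraries, against 437, 461 and 453 CPM in control libraries. Of the 10 genes SCD had the narrowest control range, with a highest value 1.05 times the lowest. SCD fell by 1.43 on the log2 scale (SE 0.121, adjusted p = 0.00224, edgeR quasi-likelihood test), to 37.0% of the control level, and passed in 6 of 6 fits with 1 library left out, where the log2 fold change lay between -1.48 and -1.41.

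FADS1 (ENSG00000149485, chromosome 11, 61799625 to 61829318, minus strand) encodes the delta-5 desaturase of polyunsaturated fatty acids. It had 66.9, 69.0 and 61.4 CPM in knockdown libraries, against 253, 306 and 170 CPM in control libraries. The lowest control value was well above the highest knockdown value. FADS1 fell by 1.89 on the log2 scale (SE 0.223, adjusted p = 0.00597), to 27.0% of the control level, the largest fold difference among the 10 genes. It passed without any single control library; without knockdown library 1, 2 or 3 the log2 fold change was -1.90, -1.92 or -1.84 and the adjusted p 0.0631, 0.0586 or 0.0664.

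FADS2 (ENSG00000134824, chromosome 11, 61792980 to 61867354, plus strand) encodes the delta-6 desaturase and was the least abundant of the 10 genes. It had 11.6, 7.36 and 8.999 CPM in knockdown libraries, against 20.1, 28.6 and 18.5 CPM in control libraries. The groups did not overlap. FADS2 fell by 1.27 on the log2 scale (SE 0.255, adjusted p = 0.0280), to 41.5% of the control level. It did not pass without control library 1 (adjusted p = 0.0510) or without knockdown library 1, 2 or 3 (adjusted p = 0.111, 0.151 or 0.160), with log2 fold changes of -1.38, -1.45, -1.12 and -1.24.

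In the annotation, FADS1 and FADS2 overlap on opposite strands, and FEN1, a nuclease gene of DNA replication, lies within FADS2 on its strand. The sources used here do not give whether the counting used strand. Whether reads from stretches shared by FADS1 and FADS2 were told apart is therefore not known. FEN1 had 34.3, 35.4 and 32.1 CPM in knockdown libraries, against 59.1, 168 and 49.1 CPM in control libraries (log2 fold change -1.44, adjusted p = 0.0879). Its highest control value was in library 2, which held the highest control value of FADS1 and FADS2 as well. Of 9 genes of the FADS neighbourhood on chromosome 11, 0 rose with DESeq2 and limma-voom, and 1 at an unadjusted p under 0.05. In edgeR 0 of them rose and 3 fell, against 4.59% and 3.72% of all genes. The third was FTH1, the ferritin heavy chain gene, at 935 ± 15.5 CPM in knockdown and 2037 ± 748 CPM in control libraries (SD, n = 3 each; adjusted p = 0.0366). FADS3, a desaturase paralog in the same cluster, had 66.1 ± 3.45 CPM in knockdown and 59.0 ± 23.5 CPM in control libraries (adjusted p = 0.753).

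The windows around the transcription starts of SCD, FADS1 and FADS2 are shown because these desaturase genes fell. The RefSeq table (GRCh38.p14) gives 250 bases before and 50 after each start. It held 14 windows for 9 of the 10 genes and no window for FASN. Capitals mark matches on either strand to CCAAT (the NF-Y element, ATTGG on the other strand), GGGCGG (the GC box bound by Sp1, CCGCCC on the other strand), CACGTG (an E-box, the same on both strands) and TCACNCC (letters of a sterol regulatory element, GGNGTGA on the other strand). The windows span chr10:100346983-100347282 (plus strand) for SCD, chr11:61816954-61817253 (minus strand) for FADS1 and chr11:61816154-61816453 (plus strand) for FADS2. The start in that FADS2 window lies 599 bases from the FADS1 start. FADS2 has a second start in the table, 800 bases from the FADS1 start, whose window held none of the 4 motifs and is not shown.
SCD: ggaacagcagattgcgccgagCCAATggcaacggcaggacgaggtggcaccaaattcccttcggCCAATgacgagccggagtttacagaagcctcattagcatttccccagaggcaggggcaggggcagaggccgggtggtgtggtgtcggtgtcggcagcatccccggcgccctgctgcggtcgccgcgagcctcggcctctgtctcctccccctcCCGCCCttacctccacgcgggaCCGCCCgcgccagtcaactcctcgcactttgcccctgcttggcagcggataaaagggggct
FADS1: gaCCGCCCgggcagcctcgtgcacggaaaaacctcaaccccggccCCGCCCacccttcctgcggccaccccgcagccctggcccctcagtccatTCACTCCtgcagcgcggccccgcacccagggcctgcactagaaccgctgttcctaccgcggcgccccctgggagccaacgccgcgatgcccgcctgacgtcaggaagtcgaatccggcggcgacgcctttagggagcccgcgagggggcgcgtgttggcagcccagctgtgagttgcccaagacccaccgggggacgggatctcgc
FADS2: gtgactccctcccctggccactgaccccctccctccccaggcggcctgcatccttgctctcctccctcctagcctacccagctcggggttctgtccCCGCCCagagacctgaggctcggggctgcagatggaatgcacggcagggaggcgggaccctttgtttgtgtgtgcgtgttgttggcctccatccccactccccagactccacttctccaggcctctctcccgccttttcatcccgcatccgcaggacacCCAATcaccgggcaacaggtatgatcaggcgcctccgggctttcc
CCAAT stood in at least 1 window of 7 of the 9 genes, against 39.7% of all 27305 genes with a window. GGGCGG stood in 8 of 9 (48.3% of all genes), TCACNCC in 2 of 9, ACSS2 and FADS1 (18.2%), and CACGTG in 1 of 9, ELOVL5 (8.775%). By window, CCAAT stood in 9 of 14, against 34.6% of all 35116 windows, and GGGCGG in 11 of 14 (44.9%). Some genes had more than 1 window. The ACLY windows overlap each other, as do those of FADS2, so the 14 windows are not separate. SCD held a pair of CCAAT boxes 229 and 186 bases before its start. Such matches describe the letters of these windows only.

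The elongases lay lower without passing the test. ELOVL5 (ENSG00000012660, chromosome 6, 53267398 to 53349179, minus strand), which lengthens polyunsaturated fatty acids, had 85.9, 100.2 and 97.4 CPM in knockdown libraries, against 194, 109.5 and 224 CPM in control libraries. Control library 2 again lay close to the knockdown values. The log2 fold change was -0.90 (SE 0.256, adjusted p = 0.0728), and without control library 2 it was -1.14 (adjusted p = 0.000387).

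ELOVL6 (ENSG00000170522, chromosome 4, 110045846 to 110199199, minus strand), which lengthens palmitate, had 35.5, 31.8 and 34.3 CPM in knockdown libraries, against 66.8, 39.4 and 80.2 CPM in control libraries. Here too control library 2 was the lowest control. The log2 fold change was -0.87 (SE 0.251, adjusted p = 0.0738), and without control library 2 it was -1.11 (adjusted p = 0.000459). Of the 10 genes ELOVL6 was the one in which counts and TPM differed most. It had 25.6, 27.8 and 31.1 TPM in knockdown libraries, against 22.1, 46.9 and 28.2 TPM in control libraries, so the groups overlapped. In limma-trend on log2(TPM + 1) its log2 fold change was -0.13 (adjusted p = 0.871). With mitochondrial ribosomal RNA taken out and TPM rescaled it was -0.28 (adjusted p = 0.487). Counts per TPM are proportional to the effective transcript length assigned to a gene. Divided by the library median, they were 0.809, 0.684 and 0.640 in knockdown libraries and 1.13, 0.461 and 1.70 in control libraries. The highest was 3.68 times the lowest, a spread wider than in 99.8% of 9801 genes with at least 100 counts in each library (median 1.23).

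ELOVL1 (ENSG00000066322, chromosome 1, 43363397 to 43368074, minus strand), which lengthens saturated chains to very long ones, had 67.4, 67.1 and 68.3 CPM in knockdown libraries, against 86.0, 119 and 90.2 CPM in control libraries. The groups did not overlap and the knockdown values were nearly equal. The log2 fold change was -0.54 (SE 0.156, adjusted p = 0.0753); without control library 2, the highest control, it was -0.38 (adjusted p = 0.00752).

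**Figure D2:**
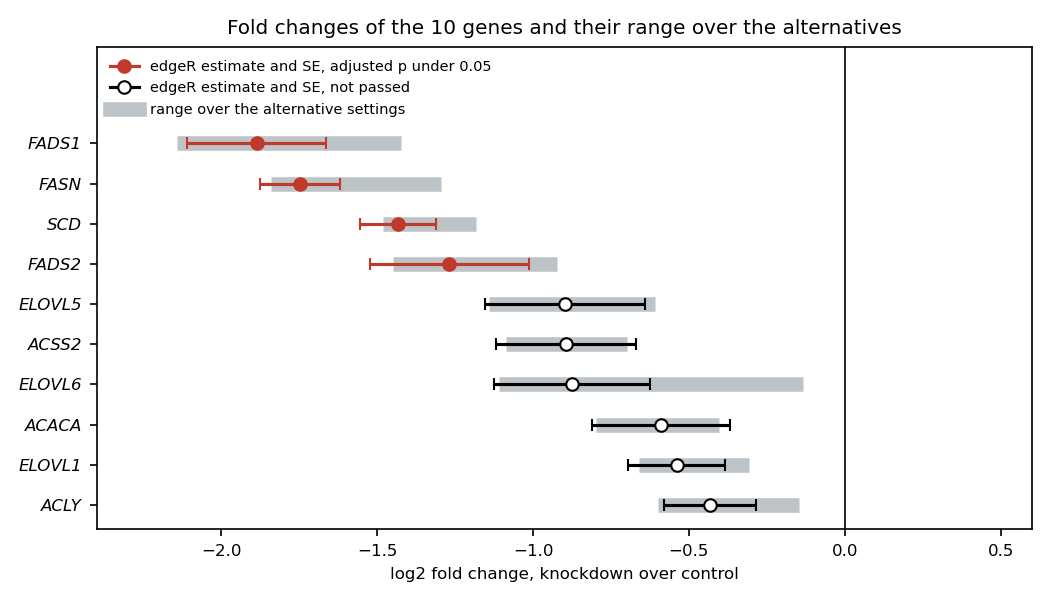
Log2 fold change, knockdown over control, of the 10 genes, with whiskers of 1 SE from the edgeR fit and a grey band for the range over 18 alternative settings. Filled red points passed an adjusted p of 0.05; all bands lie below 0, between -2.14 for FADS1 and -0.13 for ELOVL6 on the TPM scale.

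The control libraries sorted the 10 genes into 3 patterns, described here after the values were seen. In ACACA, ACSS2, ELOVL5 and ELOVL6, control library 2 differed from the mean of control libraries 1 and 3 by -0.75, -0.70, -0.93 and -0.90 on the log2 CPM scale. In FADS1, FADS2 and ELOVL1 it lay above that mean, by 0.56, 0.57 and 0.43, and in ACLY by 0.21. In FASN and SCD it differed by -0.06 and 0.05. INSIG1, an SREBP target that retains the SREBP complex in the endoplasmic reticulum, had 132, 133 and 137 CPM in knockdown libraries, against 300.4, 97.04 and 451 CPM in control libraries, so its control library 2 lay below the knockdown libraries (log2 fold change -1.08, adjusted p = 0.197).

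**Figure D3:**
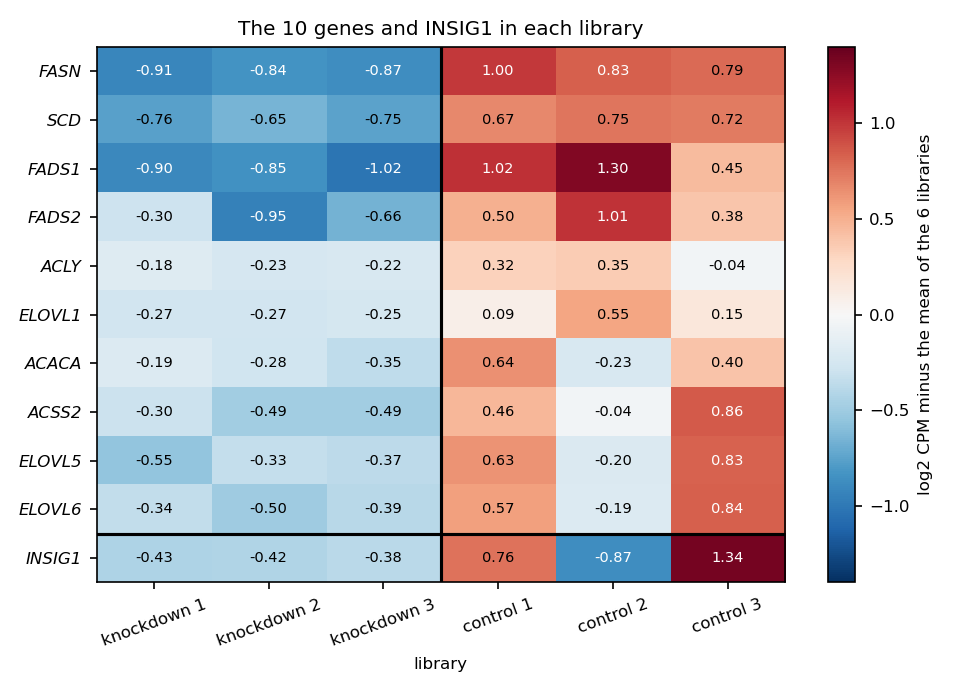
Log2 TMM-normalized CPM of each gene in each library, centred on the gene's mean over the 6 libraries (red above the mean, blue below), with knockdown libraries left of control libraries and genes ordered by pattern after their values were seen. Control library 2 lies among the knockdown libraries in ACACA, at -0.23, lies below them in INSIG1, at -0.87, and is the highest library in FADS1, at 1.30, and FADS2, at 1.01.

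On the TPM scale, which corrects for transcript length and so allows levels of different genes to be compared, the order of the genes differed between the groups. In knockdown libraries the order of mean TPM was ELOVL1 (72.8 ± 4.67), ACLY (66.2 ± 1.25), ELOVL5 (55.4 ± 4.10), SCD (42.5 ± 2.47), ACSS2 (37.1 ± 1.91), ELOVL6 (28.1 ± 2.77), FADS1 (26.1 ± 1.78), FASN (25.7 ± 1.57), ACACA (18.5 ± 3.06) and FADS2 (5.70 ± 1.31; SD, n = 3). Neighbours in that order did not overlap, except ELOVL6 with FADS1 and FADS1 with FASN. In control libraries the order was SCD (99.97 ± 24.5), ELOVL1 (94.3 ± 32.9), ELOVL5 (88.8 ± 33.7), ACLY (74.4 ± 15.2), FADS1 (73.3 ± 20.6), ACSS2 (66.8 ± 35.2), FASN (66.2 ± 17.7), ELOVL6 (32.4 ± 12.9), ACACA (25.1 ± 6.79) and FADS2 (11.8 ± 3.20; SD, n = 3). Neighbours overlapped there, except FASN with ELOVL6 and ACACA with FADS2. By mean TPM, SCD thus stood at rank 4 in knockdown and rank 1 in control libraries. It was not the highest of the 10 genes in any single control library. ELOVL5 lay above SCD in control library 1 (77.7 against 71.7 TPM) and control library 3 (127 against 115 TPM). ELOVL1 lay above it in control library 2 (125 against 113 TPM). The 10 genes together took 378, 384 and 372 TPM in knockdown libraries, against 490.5, 673 and 736 TPM in control libraries. On this scale the knockdown and control values did not overlap for FASN, SCD, FADS1, FADS2 and ELOVL5.

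The TPM of control library 1 were lowered by the share of mitochondrial ribosomal RNA, 30.1% of its TPM. In limma-trend on log2(TPM + 1), a scale that understates changes of low genes, FASN (-1.30, adjusted p = 0.0335), SCD (-1.18, adjusted p = 0.0462) and FADS1 (-1.42, adjusted p = 0.0235) passed. With the mitochondrial ribosomal RNA taken out and TPM rescaled, FADS2 passed as well (-1.06, adjusted p = 0.0339), which gave the 4 genes of the count-based test.

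Several enzymes of the pathway have a paralog that carries out the same reaction, and the paralogs were read from the same fit. Of 10 paralogs, 8 were tested, of which 2 rose and 1 fell, against 4.59% and 3.72% of all genes. Their median log2 fold change was 0.10. ACACB, the carboxylase of the outer mitochondrial membrane whose malonyl-CoA restrains fatty acid oxidation, had 37.4, 38.5 and 35.3 CPM in knockdown libraries, against 15.2, 17.6 and 18.5 CPM in control libraries. It rose by 1.12 on the log2 scale (SE 0.149, adjusted p = 0.00858). SCD5, the other human stearoyl-CoA desaturase, had 58.2, 54.2 and 62.9 CPM in knockdown libraries, against 26.4, 31.7 and 20.3 CPM in control libraries. It rose by 1.16 (SE 0.186, adjusted p = 0.0149). ELOVL2, an elongase of polyunsaturated fatty acids, fell by 1.24 (adjusted p = 0.00584), with 15.3, 14.2 and 16.1 CPM in knockdown libraries, against 34.6, 34.5 and 38.5 CPM in control libraries. For all 3 the groups did not overlap. Without knockdown library 1, 2 or 3 none of them passed, with adjusted p of 0.0867, 0.0846 and 0.0818 for ACACB, 0.109, 0.0889 and 0.111 for SCD5 and 0.0712, 0.0714 and 0.0664 for ELOVL2.

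The windows of ACACB (chr12:109154429-109154728, plus strand) and SCD5 (chr4:82798747-82799046, minus strand) are shown, with the same motifs in capitals, to set the paralogs that rose beside SCD.
ACACB: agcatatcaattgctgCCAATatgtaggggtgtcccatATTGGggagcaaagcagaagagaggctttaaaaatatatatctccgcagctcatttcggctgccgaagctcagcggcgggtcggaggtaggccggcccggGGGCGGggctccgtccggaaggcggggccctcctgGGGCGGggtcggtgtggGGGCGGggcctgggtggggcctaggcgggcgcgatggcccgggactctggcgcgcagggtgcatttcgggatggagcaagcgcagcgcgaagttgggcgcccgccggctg
SCD5: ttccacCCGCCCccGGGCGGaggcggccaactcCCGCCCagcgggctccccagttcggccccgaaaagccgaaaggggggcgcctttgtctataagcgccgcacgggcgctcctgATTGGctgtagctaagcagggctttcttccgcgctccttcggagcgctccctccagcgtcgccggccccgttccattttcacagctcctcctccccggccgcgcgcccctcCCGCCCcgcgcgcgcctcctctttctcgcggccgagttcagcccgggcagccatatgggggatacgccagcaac
Both windows held CCAAT letters and GGGCGG letters on either strand, and neither held CACGTG or TCACNCC, the same set of motifs as in SCD. A second ACACB window in the table, chr12:109116337-109116636 (plus strand), held none of the 4 motifs and is not shown.

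Within each library, the share of a paralog in the TPM of its pair was compared, which does not depend on the library total. SCD5 made up 39.1%, 35.6% and 40.6% of SCD plus SCD5 in knockdown libraries, against 10.3%, 10.9% and 7.71% in control libraries. ACACB made up 34.1%, 36.7% and 36.4% of ACACA plus ACACB in knockdown libraries, against 8.62%, 19.0% and 18.9% in control libraries. ACSS1, the mitochondrial acetyl-CoA synthetase, made up 25.0%, 27.9% and 27.6% of ACSS1 plus ACSS2 in knockdown libraries, against 9.89%, 22.7% and 8.02% in control libraries. In all 3 pairs the knockdown libraries were higher with no overlap. The log2 ratio differed by 2.56, 1.68 and 1.37, each with an exact 2-sided permutation p of 0.10, the smallest that 3 against 3 libraries can give (0.20 adjusted over 6 ratios). The ratios of FADS1 to FADS2 (-0.42, exact p = 0.30), ELOVL6 to ELOVL5 (0.48, exact p = 0.40) and SCD to FASN (0.13, exact p = 0.40) overlapped between groups.

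**Figure D4:**
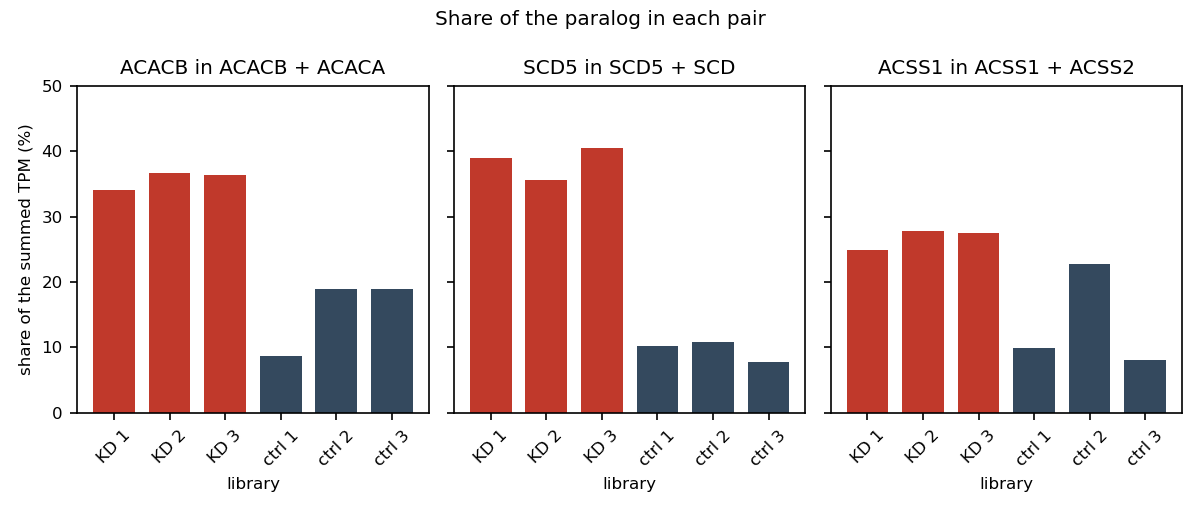
Share of the named paralog in the summed TPM of its pair, in percent, 1 bar per library, with knockdown (KD, red) left of control (ctrl, blue). The 3 knockdown libraries lie between 35.6% and 40.6% for SCD5, above control libraries at 7.71% to 10.9%.

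The enzymes that complete the elongation cycle and that supply carbon and NADPH were read from the same fit. In that fit 3.72% of all genes fell and 4.59% rose. Of 5 elongation partners tested, 1 fell and 0 rose (0 rose at an unadjusted p under 0.05, with DESeq2 and with limma-voom): HSD17B12, the ketoacyl-CoA reductase, had 26.9 ± 0.500 CPM in knockdown and 52.8 ± 16.2 CPM in control libraries (SD, n = 3 each; adjusted p = 0.0468), and did not pass without control library 1 (adjusted p = 0.0743) or 3 (0.0747). Of 9 genes of carbon and NADPH supply, 3 fell and 0 rose (again 0 by the other counts), with a median of -0.57. SLC25A1, the carrier that exports citrate from mitochondria, had 41.2 ± 1.47 CPM in knockdown and 82.7 ± 29.8 CPM in control libraries (adjusted p = 0.0487). ACO1, the cytosolic aconitase, had 32.3 ± 2.84 CPM in knockdown and 68.0 ± 5.29 CPM in control libraries (adjusted p = 0.00807). IDH1, the cytosolic isocitrate dehydrogenase that makes NADPH, had 33.5 ± 2.56 CPM in knockdown and 54.6 ± 4.09 CPM in control libraries (adjusted p = 0.0245).

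Mitochondrial fatty acid synthesis, the separate route that makes the lipoate precursor, had no called gene among 7 in edgeR, with 1 at an unadjusted p under 0.05, 1 with DESeq2 and 0 with limma-voom, and a median of -0.25. Of 7 acyl-CoA synthetases, which activate fatty acids, 1 rose: ACSL5 had 12.3 ± 0.994 CPM in knockdown and 3.25 ± 0.904 CPM in control libraries (adjusted p = 0.0110). ACSL1 (log2 fold change -0.76, adjusted p = 0.0561) and ACSL3 (-0.50, adjusted p = 0.0623) did not pass. Over all genes, 4.59% rose and 3.72% fell.

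Among 16 SREBP and lipogenic regulators, 1 fell and 1 rose, near the shares over all genes (3.72% and 4.59%). Their median was -0.14. SREBF2, which encodes SREBP-2, had 112, 108 and 111 CPM in knockdown libraries, against 279, 225 and 237 CPM in control libraries. It fell by 1.17 on the log2 scale (SE 0.135, adjusted p = 0.00575) and passed without any single control library, with adjusted p of 0.0712, 0.0730 and 0.0762 without knockdown library 1, 2 or 3. SREBF1, which encodes SREBP-1, the form best known for fatty acid genes, had 122, 126 and 134 CPM in knockdown libraries, against 63.2, 115 and 41.3 CPM in control libraries. Its knockdown values lay above its control values (log2 fold change 0.80, SE 0.336, adjusted p = 0.186), unlike those of the 10 genes. Over all genes, 21.9% had every knockdown value above every control value. The regulator that rose was THRSP, a lipogenic cofactor, with 16, 17 and 44 counts in knockdown libraries, against 1, 0 and 0 counts in control libraries (adjusted p = 0.0436).

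The cholesterol pathway is the other main set of SREBP target genes. Of 19 genes of cholesterol synthesis, 8 fell, FDPS and DHCR7 among them, and 1 rose (TM7SF2), with a median of -1.43, and in 13 of 19 every knockdown value lay below every control value. In the 10 fatty acid genes the same counts were 4 fallen, 0 risen and 9 without overlap. Over all genes, 3.72% fell, 4.59% rose, and 15.7% had every knockdown value below every control value. FDPS, farnesyl diphosphate synthase, had 52.7 ± 2.59 CPM in knockdown and 147 ± 17.9 CPM in control libraries (SD, n = 3 each; adjusted p = 0.00318). DHCR7, which encodes the reductase that makes cholesterol from its dehydro precursor, had 92.6 ± 5.55 CPM in knockdown and 247 ± 27.0 CPM in control libraries (adjusted p = 0.00359). The difference between the lists was not tested.

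Of the genes that use fatty acids, most did not pass in the glycerolipid (11 of 13) and oxidation (16 of 18) lists, and the shares called were near those over all genes (3.72% fell, 4.59% rose). Of 13 glycerolipid genes 1 fell and 1 rose: PLIN3, a lipid droplet coat gene, had 71.2 ± 0.998 CPM in knockdown and 114 ± 17.5 CPM in control libraries (adjusted p = 0.0330), and LPIN3, a phosphatidate phosphatase gene, had 56.1 ± 2.29 CPM in knockdown and 28.9 ± 8.33 CPM in control libraries (adjusted p = 0.0351). Of 18 genes of fatty acid oxidation 1 fell and 1 rose. ACAA2, a mitochondrial thiolase, had 56.9 ± 0.919 CPM in knockdown and 84.9 ± 8.82 CPM in control libraries (adjusted p = 0.0382). CPT1B, the muscle form of the carnitine transferase, had 31.0 ± 2.48 CPM in knockdown and 13.5 ± 4.28 CPM in control libraries (adjusted p = 0.0325). Of 9 uptake and binding genes 5 were tested, of which 2 rose and 0 fell (0 fell at an unadjusted p under 0.05, with DESeq2 and with limma-voom). SLC27A1, a fatty acid transporter gene, had 44.5 ± 4.64 CPM in knockdown and 17.8 ± 2.08 CPM in control libraries (adjusted p = 0.00666), and SLC27A3 had 11.6 ± 0.897 CPM in knockdown and 5.50 ± 1.09 CPM in control libraries (adjusted p = 0.0349).

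Several of these list genes depended on single libraries. Without control library 1, LPIN3 (adjusted p = 0.0983), SLC27A3 (0.0752), THRSP (0.0707) and TM7SF2 (0.0510) did not pass. Without control library 3, the genes LPIN3 (adjusted p = 0.0737), SLC27A3 (0.0562), THRSP (0.0671), CPT1B (0.0594) and SLC25A1 (0.0591) did not pass. Without knockdown library 1, 2 or 3, of the genes named here from the lists other than the 10, FDPS and DHCR7 passed in 2 of 3 fits. The others named here that had passed with all libraries passed in none of these fits. Their adjusted p lay between 0.0548 for SLC27A1 and 0.225 for THRSP. Over all genes these fits called 62, 115 and 88 genes, against 1614 with all libraries.

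**Figure D5:**
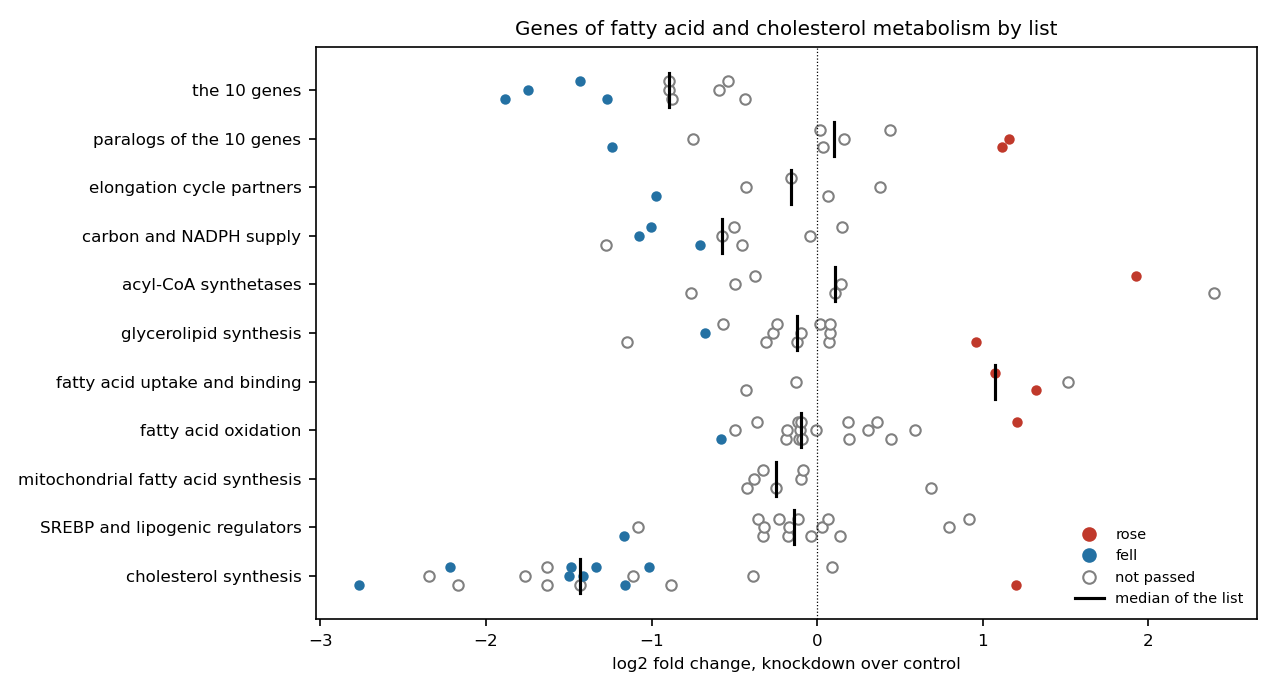
Log2 fold change, knockdown over control, of each tested gene by list, 1 point per gene, with the median of each list as a black line. Filled red and blue points rose and fell at an adjusted p of 0.05, and open points did not pass. THRSP, near 0 counts in controls, is left out of the points; the medians lie at -0.90 for the 10 genes, -1.43 for cholesterol synthesis and 0.10 for the paralogs.

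Some markers of host tissue differed between the groups. Of 6 smooth muscle markers, 2 rose (MYH11 and CNN1), and their summed level was 332 to 356 CPM in knockdown and 145 to 234 CPM in control libraries; MYH11 had 56.5, 54.6 and 57.9 CPM in knockdown libraries, against 6.95, 2.31 and 0.905 CPM in control libraries. CNN1 did not pass without control library 3 (adjusted p = 0.0578). CPT1B, ACACB and SLC27A1 are known to be abundant in muscle, and the part of smooth muscle in their rise was not tested. Adipocytes also make fatty acids. Of 6 adipocyte markers, 5 were below 1 TPM in every library. Their summed level was 4.94 to 5.65 CPM in knockdown and 5.99 to 7.16 CPM in control libraries. The 1 tested marker, LIPE, had 5.23 ± 0.357 CPM in knockdown and 5.98 ± 0.137 CPM in control libraries (adjusted p = 0.667). All host markers here are human gene entries, and how mouse reads were treated is not given. Their levels therefore do not measure the amount of mouse tissue. Summed fibroblast markers spanned 158 to 159 CPM in knockdown and 19.1 to 209 CPM in control libraries (PDGFRB rose), macrophage markers 73.6 to 74.8 CPM in knockdown and 88.1 to 293 CPM in control libraries, urothelial markers 13.8 to 17.3 CPM in knockdown and 2.05 to 10.999 CPM in control libraries (UPK1A rose), and endothelial markers 5.11 to 6.55 CPM in knockdown and 1.89 to 3.35 CPM in control libraries. None of the 5 endothelial and 4 macrophage markers tested passed in edgeR (1 of each at an unadjusted p under 0.05, 1 of each with DESeq2 and with limma-voom). Of 5 markers of the carcinoma line, VIM rose (5584 ± 78.2 CPM in knockdown and 2640 ± 642 CPM in control libraries, adjusted p = 0.0206), while KRT8, KRT18, EGFR and CD44 did not pass. Their part in the lower levels of the 10 genes was not tested.

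The genes outside all lists whose centred log2 CPM profile over the 6 libraries lay nearest to FASN, among 9485 protein-coding candidates, were STC1, VEPH1 and PHLPP1, at root mean square distances of 0.123, 0.132 and 0.145. For SCD they were ORC1, CENPU and PAQR5, at 0.0669, 0.0687 and 0.0795. FASN and SCD lay 0.177 apart, and FASN and FADS1 0.245. The neighbours were picked for their closeness, so these distances are a description.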

How the data were processed

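Bulk RNA-seq covered 3 GANAB knockdown and 3 control libraries. TRIzol was used for RNA extraction and 200 ng went into a VAHTS Universal V6 library, per the labels' protocols. The tools were fastp, Salmon and DESeq2 with build GRCh38, per the submitters' processing notes. Not given in the sources used here were tool versions, annotation release, use of strand and treatment of mouse reads, some of which may match human transcripts. The authors deposited estimated counts per Ensembl gene (21503 genes, whole numbers, not normalized) and TPM (60233 genes). Knockdown columns are headed with a knockout abbreviation in the deposited tables, and columns were assigned by group and number.

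On the estimated counts of all 6 libraries, edgeR 4.0.16 in R 4.3.3 was run with its quasi-likelihood test (TMM, filterByExpr, 2-sided, Benjamini-Hochberg at 0.05). The filter removed 2073 genes and left 19430. Depth ran between 11737837 and 40039584 counts. Tested on simulated counts of 18840 genes for knockdown against control, edgeR recovered 13.3% of 2-fold and 62.1% of 4-fold changes and called 6 of 18647 unchanged genes. The simulation gave both groups of a gene the same dispersion. The real groups differed, with a biological coefficient of variation of 10.7% in knockdown and 52.3% in control libraries. These rates may therefore not hold for the real libraries. Library pairs differed by more than sampling noise: chi-square per degree of freedom was 5.81 to 6.97 between knockdown and 57.9 to 144 between control libraries, mitochondrial ribosomal RNA left out. Of 21503 identifiers, 20986 were in GENCODE release 29 (GRCh38), which gave positions; promoter windows came from RefSeq.

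The 10 genes and the 19 lists were chosen with earlier results of these data known. Named genes were GANAB, the 10 genes, up to 3 genes with the smallest p and all that passed in each list (1 gene is not reported here), the most abundant host marker of a list, and the 3 nearest profiles of FASN and SCD (mean of at least 10 CPM). SREBF1, INSIG1, FEN1, FADS3, ACSS1, EGFR and CD44 lie outside this rule and were named after their values were seen. Alternatives were DESeq2 1.42.0, limma 3.58.1 (voom with quality weights, and trend on TPM), other scalings and filters, a replicate block and leaving out each library; rescaled TPM was added after seeing the data.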

Additional observations from a re-analysis of the deposited data

How the results depend on the processing

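Of the 18 alternatives, none turned the direction of any of the 10 genes. The 6 ratios kept their direction with CPM in place of TPM, with 0.1 TPM added and with each library left out. Over all genes 1614 were called; 3655 were with DESeq2, 3716 with limma-voom and quality weights, 828 with limma-trend on log2(TPM + 1), 526 with 0.1 added, 46 without a filter on TPM, and 62 to 5604 with 1 library left out. Of the 10 genes 4 were called; 9 were with DESeq2, 10 with limma-voom, 2 with 0.1 added to TPM, 0 without a filter on TPM, and 2 to 9 with 1 library left out. Of the 107 tested genes of 10 pathway lists 25 were called; 42 were with DESeq2, 46 with limma-voom, 8 with log2(TPM + 1), 6 with 0.1 added, 1 without a filter, 14 with rescaled TPM, and 1 to 52 with 1 library left out. With the knockdown libraries summed to 1 library, which leaves that group with 1 sample assumed to vary like the controls, 1 gene was called, 0 of the 10 and 0 of the lists. Libraries with the same number correlated at 0.00134, 0.0181 and 0.0230 in their deviations. The labels do not say whether equal numbers mark a pair, and with 3 libraries per group these correlations cannot decide it. With a replicate block 566 genes were called, 14 of the lists and 3 of the 10 (FASN, SCD and FADS1). ACSF3, at -0.33, turned to 0.18 with log2(TPM + 1), with or without the filter, 0.20 with 0.1 added and 0.0428 with rescaled TPM. ADGRE1, at -0.28, turned to 0.11 with limma-voom and to 0.0271 (log2(TPM + 1)), 0.0426 (0.1 added) and 0.0271 (no filter), and ranged between -0.51 and 0.18 with 1 library left out. Likewise KRT5 ranged between -0.17 and 0.755 and KRT18 between -0.12 and 0.41. The cause was not tested. Depth gave each of the 10 genes at least 225 counts in every library. In a simulation with the same dispersion in both groups, unlike the real libraries, 13.3% of 2-fold changes were recovered. A gene that did not pass may still have changed.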
